A study of Mus musculus with 8 samples.

Results

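Liver-specific loss of Cpt2 was compared with intact Cpt2 in mice that all lacked Ppara, using 4 of the 8 ATAC-seq libraries of the study. ATAC-seq cuts open DNA with a transposase, so a peak marks a stretch of accessible chromatin. Both groups came from livers of male C57BL/6 mice aged 9 weeks and fasted for 24 h. The Ppara knockout group (Ppara -/-, 2 libraries) lacked Ppara, with no tissue named for that deletion, and carried no labelled Cpt2 deletion, and the double knockout group (Cpt2 L-/-;Ppara -/-, 2 libraries) lacked both genes, Cpt2 in the liver. The other 4 libraries, wild type and Cpt2 liver knockout (Cpt2 L-/-) with Ppara intact, were used only to place the regions found here. The labels name neither the driver of the liver deletion nor the deleted exons, and do not say whether the 2 libraries of a group came from separate animals. Any p-value therefore measures the spread between libraries, which may be technical.

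CPT2 is the enzyme of the inner mitochondrial membrane that turns acylcarnitines back into acyl-CoA, the last step by which long-chain fatty acids reach the oxidation machinery. PPARα, the product of Ppara, is a nuclear receptor that binds fatty acids and switches on the genes of fatty acid oxidation and ketone body synthesis during a fast. Without CPT2 long-chain fatty acids cannot be burned in mitochondria, and without PPARα the liver lacks the main receptor that answers to them. The comparison asked which parts of the chromatin differ with Cpt2 loss once that receptor is absent.

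The unit of the comparison was the consensus region, a position on mm10 at which at least 1 of the 8 libraries has a peak. Of 49587 consensus regions, 28614 were called in at least 1 of the 4 Ppara-null libraries and 11622 in all 4. A region was counted as changed when a peak overlapped it by 1 bp or more in both libraries of one group and in neither of the other. By this rule 1157 regions were called only in double knockout, which is 4.04% of the 28614, and 721 only in Ppara knockout, which is 2.52%. Together these 1878 regions are the ones described here. The calls of the 2 double knockout libraries differed at 8814 regions and those of the 2 Ppara knockout libraries at 8923. By the same pairwise count, a library of one genotype differed from one of the other at 8841 to 10326 regions, so the range between genotypes starts within that of replicates. The counts of changed regions were not tested.

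**Figure D1:**
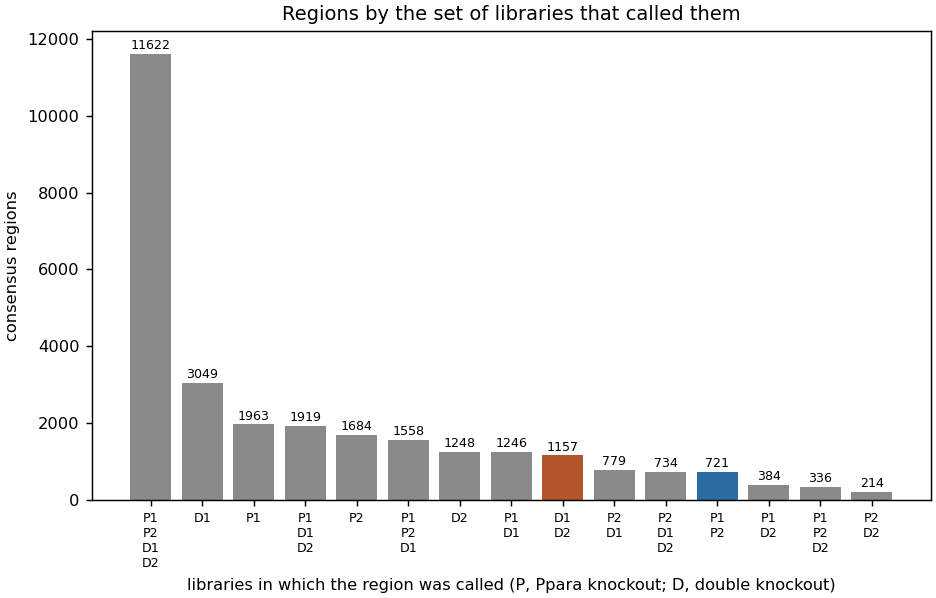
Number of consensus regions (vertical axis) for each set of libraries that called them (horizontal axis), with P1 and P2 the Ppara knockout and D1 and D2 the double knockout libraries. The 11622 regions called in all 4 form the tallest bar, the 1157 and 721 regions that separate the genotypes are coloured, and 1246 regions were called in Ppara knockout 1 and double knockout 1 alone.

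The lists held 20340 and 18283 peaks in Ppara knockout and 22715 and 18132 in double knockout. The means were 19311.5 ± 1455 and 20423.5 ± 3241 (SD, n = 2 each), and the difference of 1112 was smaller than the spread between double knockout libraries (exact two-sided permutation test, p = 1, where the smallest possible is 0.333). Ppara knockout 2 stood apart from the other 3 libraries. Over the regions shared by all 4, Spearman's rank correlation of the peaks' −log10 p was 0.58 and 0.60 between it and the double knockout libraries. The correlation was 0.68 between the 2 Ppara knockout libraries and 0.79 between the 2 double knockout libraries. Ppara knockout 1 correlated at 0.69 and 0.68 with double knockout 1 and 2, no lower than with its own replicate. Of the regions of Ppara knockout 2, 48.6% lay within 1 kb of a gene start, against 40.5% to 43.4% in the other 3. Without Ppara knockout 2 the direction of the call counts turned, with 1891 regions called only in double knockout and 2684 only in Ppara knockout. The counts of changed regions, their shares at gene starts and the counts of most gene lists are given with and without it. Without it, 7.02% of all regions called in any of the remaining 3 libraries were called only in double knockout and 9.97% only in Ppara knockout, which are the shares to set beside the list counts of that setting. The whole tissue was profiled, so fewer cells of a type and lower accessibility per cell cannot be told apart. Regions called in any of the 4 libraries within 100 kb of the nearest of 6 hepatocyte markers (Alb, Apoa1, Ttr, Cps1, Hnf4a, Cyp7a1) numbered 49, and none lay nearest to the 6 markers of Kupffer cells and macrophages. The 6 endothelial markers had 10, the 6 stellate cell markers 2, and the 6 lymphocyte and 6 cholangiocyte markers 3 each.

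The targeted genes were looked at first. The start of Cpt2 (chr4:107923217-107923773) was called in all 4 libraries, with a −log10 p of 24.4 and 17.9 in Ppara knockout and 11.7 and 14.6 in double knockout. The double knockout peaks were the lower pair, and no other region at Cpt2 was called in these libraries. Around Ppara 13 regions were called in any of the 4 and 2 in all 4, and the start of the gene (chr15:85734711-85736214) had 20.3 and 29.4 in Ppara knockout and 32.7 and 32.6 in double knockout. A region 51.7 kb from Ppara (23.6 and 22.1) and one inside it (18.0 and 13.8) were called only in double knockout. These calls check no label, since the deleted exons are not given.

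The changed regions were peaks of low to middle rank. Strength was read from the deposited −log10 p of each peak, the caller's own score against local background, turned into a percentile within its library's list. The median of the mean percentile was 33.4 for regions called only in double knockout and 28.3 for those called only in Ppara knockout, against 64.8 for regions called in all 4. A percentile of 50 or more was reached by 225 of the 1157 and by 82 of the 721. Lists in the 4 libraries ended at a −log10 p of 7.11 to 7.77, so an uncalled region may hold signal just under that limit.

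Regions called only in double knockout lay away from gene starts more often than those called only in Ppara knockout. Among regions whose nearest protein-coding gene has a start site in the RefSeq table used, 13.6% of the double knockout regions (124 of 913, Wilson 95% interval 11.5 to 16.0) and 32.8% of the Ppara knockout regions (188 of 574, 29.0 to 36.7) lay within 1 kb of a start. Those intervals cover counting error only. Over all regions called in any of the 4 libraries the share was 36.4%. Inside genes lay 44.4% of the double knockout regions and 31.0% of the Ppara knockout regions. The order rested on Ppara knockout 2, the library with the highest share of regions at starts. Without it the shares were 24.0% and 21.3%.

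**Figure D2:**
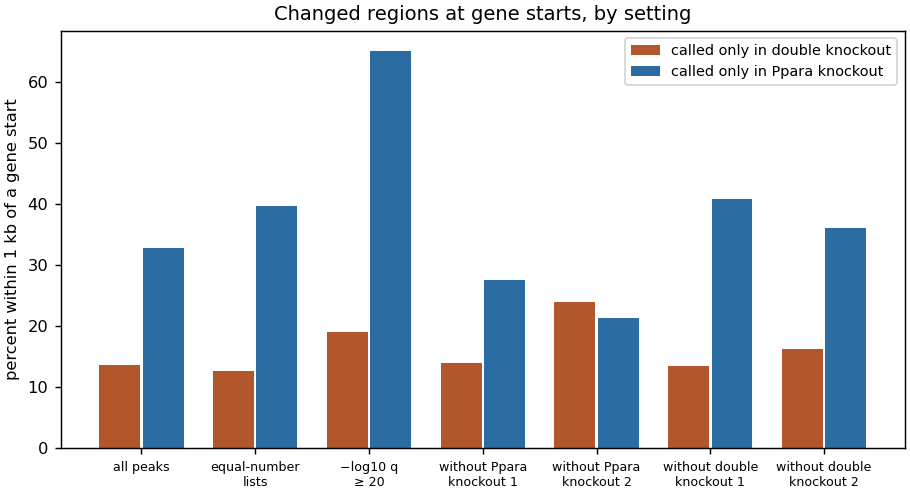
Percent of changed regions within 1 kb of a gene start (vertical axis) with all peaks, with each library's list cut to equal length, with only peaks of a −log10 q of 20 or more, and without each library in turn. The Ppara knockout regions stand at 32.8% and the double knockout regions at 13.6% with all peaks, and the order turns only without Ppara knockout 2, at 21.3% and 24.0%.

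Promoters of some liver genes were among the changed regions, and the sequences of 6 are shown because the call at the start of the gene separated the groups. Each run is the 250 bases before the RefSeq start site on GRCm38.p6, 5′ to 3′ along the gene, and none of the transcript is included. Capitals mark every match, on either strand, to 9 short motifs: the antioxidant response element TGACNNNGC, the cAMP response element TGACGTCA, the AP-1 site TGANTCA, the PPAR direct repeat (2 copies of AGGTCA with any base between them), the HNF1 site (GTTAAT, any base and then ATTAAC), the CCAAT box, the TATA box with the letters TATAAA, the GC box with the letters GGGCGG and the E-box with the letters CACGTG. No match overlaps another in these 6. The first 4 were called only in double knockout and the last 2 only in Ppara knockout.
Alb, chr5:90460620-90460869, plus strand: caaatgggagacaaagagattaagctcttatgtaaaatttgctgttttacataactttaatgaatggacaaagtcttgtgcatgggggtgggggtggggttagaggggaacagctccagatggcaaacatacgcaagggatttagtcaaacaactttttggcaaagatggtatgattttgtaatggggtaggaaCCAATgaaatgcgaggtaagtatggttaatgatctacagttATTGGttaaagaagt
Nqo1, chr8:107403206-107403455, minus strand: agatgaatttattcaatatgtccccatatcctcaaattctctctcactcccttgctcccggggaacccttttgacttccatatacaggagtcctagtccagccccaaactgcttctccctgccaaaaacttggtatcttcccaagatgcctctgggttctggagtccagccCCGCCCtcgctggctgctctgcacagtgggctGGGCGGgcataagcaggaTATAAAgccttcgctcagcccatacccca
Cyp3a11, chr5:145879855-145880104, minus strand: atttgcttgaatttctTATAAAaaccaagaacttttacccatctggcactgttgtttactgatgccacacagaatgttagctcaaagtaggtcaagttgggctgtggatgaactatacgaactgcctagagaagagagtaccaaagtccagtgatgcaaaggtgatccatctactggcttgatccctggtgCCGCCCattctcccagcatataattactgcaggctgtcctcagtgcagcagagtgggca
Gstm3, chr3:107969175-107969424, minus strand: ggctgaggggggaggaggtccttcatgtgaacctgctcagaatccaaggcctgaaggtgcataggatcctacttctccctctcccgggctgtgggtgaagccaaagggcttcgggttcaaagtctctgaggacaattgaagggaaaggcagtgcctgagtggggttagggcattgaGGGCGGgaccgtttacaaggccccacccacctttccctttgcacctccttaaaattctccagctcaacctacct
Sgo2a, chr1:57995724-57995973, plus strand: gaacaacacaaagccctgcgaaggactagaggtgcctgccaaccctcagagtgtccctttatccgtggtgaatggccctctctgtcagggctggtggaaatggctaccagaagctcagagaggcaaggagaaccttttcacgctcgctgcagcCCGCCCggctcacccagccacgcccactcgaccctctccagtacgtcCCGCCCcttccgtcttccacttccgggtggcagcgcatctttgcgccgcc
Stard8, chrX:99042331-99042580, plus strand: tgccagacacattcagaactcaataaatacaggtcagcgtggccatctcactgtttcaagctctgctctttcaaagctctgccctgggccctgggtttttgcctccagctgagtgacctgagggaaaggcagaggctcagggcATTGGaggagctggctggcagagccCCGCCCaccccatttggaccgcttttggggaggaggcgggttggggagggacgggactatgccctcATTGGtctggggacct

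The Alb start region (chr5:90460515-90461037) had a peak in double knockout only, with a −log10 p of 24.6 and 20.7 and a deposited fold over background of 7.24 and 6.68. Alb encodes albumin, the main plasma protein made by hepatocytes, and its 250 bases hold CCAAT at −56 to −52 and, reversed, at −15 to −11 from the start. The Nqo1 start region (chr8:107403005-107403759) had peaks of 16.7 and 25.7 in double knockout. Nqo1 encodes a quinone reductase of the antioxidant response. Its printed bases hold a TATA box at −29 to −24 and a GC box at −79 to −74 and at −47 to −42, and no antioxidant response element. Cyp3a11, a cytochrome P450 that oxidises drugs and bile acids, had peaks of 12.4 and 19.9 (chr5:145879712-145880115), and Gstm3, a glutathione transferase, peaks of 13.7 and 14.3 (chr3:107969054-107969393). Each of these 4 regions was called in neither Ppara knockout library. In lists of equal length Cyp3a11 and Gstm3 were called in 1 of the 2 double knockout libraries, and with a peak required to cover 50% of the region Nqo1 was called in 0, so that only Alb kept its separation of the groups in both settings. Both wild type libraries called Alb, Nqo1 and Cyp3a11, and 1 called Gstm3.

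On the Ppara knockout side, the start of Sgo2a (chr1:57995721-57996410), which encodes a protector of chromosome cohesion, had peaks of 24.2 and 30.8. The start of Stard8 (chrX:99042340-99042939), which encodes a GTPase activating protein, had peaks of 28.2 and 26.1. Both starts hold GC boxes, and Stard8 also holds CCAAT at 2 places. Over 21263 promoter windows of 300 bases (250 before and 50 after the start), a GC box was present in 46.2%, CCAAT in 38.2%, the antioxidant response element in 13%, TATAAA in 12.6%, the E-box in 7.84%, the AP-1 site in 6.99%, the cAMP response element in 2.23%, the PPAR repeat in 0.047% and the HNF1 site in 0.0047%. Among the 6261 windows that overlap a region called in all 4 libraries, 71.5% held a GC box and 43.7% CCAAT. Of the 100 windows that overlap a region called only in double knockout, 70 held a GC box and 24 CCAAT. Of the 188 that overlap a Ppara knockout region, 61.7% held a GC box and 32.4% CCAAT. None of the 288 windows held the PPAR repeat in these letters. The median number of CG pairs per window was 25 and 19 in these groups and 24 in windows that overlap a region called in all 4 libraries, against 13 in all windows.

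The highest-ranked region called only in double knockout lay 19.6 kb from Slc25a33, a mitochondrial carrier of pyrimidine nucleotides (chr4:149793853-149794347). Its peaks had a −log10 p of 46.8 and 55.4, which is percentile 84.3 and 92.2 of the 2 lists. Next came a region 130 kb from Trib1, a pseudokinase that directs degradation of the transcription factor C/EBPα and is linked to plasma lipids, with 40.2 and 54.8. The others of the 10 highest lay nearest to Eea1, Vmn2r102, Olfr61, Pik3c2g, Gm21149, Kank1, Tead4 and Myo9b, with a −log10 p of 29.2 to 57.7. Of the 10, 8 were also called in all 4 Ppara-intact libraries, and the exceptions were Gm21149, called in 1 Cpt2 knockout library, and Kank1, called in both Cpt2 knockout libraries and in neither wild type. None of the 10 lay at a listed start, but Tead4, whose region lies within the gene, and Trib1 have none listed. In the Ppara knockout direction the 10 highest lay nearest to Arhgap24, Ube2q2, Zfp281, Stard8, Dand5, Sgo2a, Zfp618, Atxn1, Hcls1 and Mfsd7a, with a −log10 p of 21.3 to 38.6. All 10 of these were called in each of the 4 Ppara-intact libraries, and 3 (Stard8, Sgo2a, Mfsd7a) lay at a start, while Arhgap24 and Atxn1 have no listed start.

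**Figure D3:**
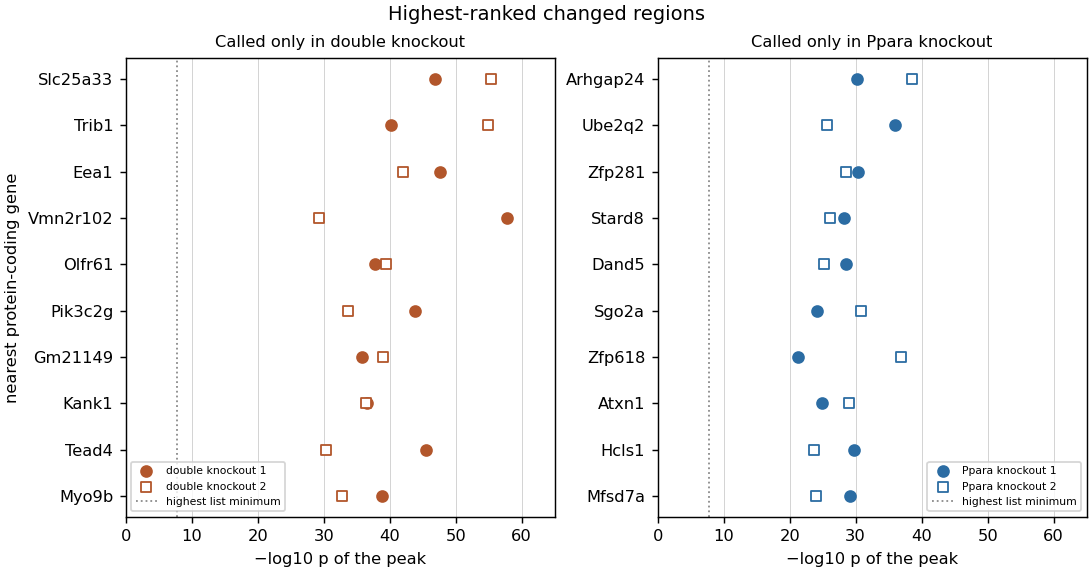
Deposited −log10 p of the peak in each library that called the 10 highest-ranked changed regions of each direction, labelled by nearest gene; the dotted line is the highest of the 4 list minima. Slc25a33 and Trib1 reach 55.4 and 54.8 in double knockout, and the peaks of the Ppara knockout regions stay between 21.3 and 38.6.

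Genes with 3 or more changed regions of one direction numbered 14, all in the double knockout direction, where the list is longer (1157 regions against 721). A count of 2 or more was reached by 89 of 971 genes with a double knockout region and by 22 of 666 with a Ppara knockout region. No gene had over 2 in the Ppara knockout direction. These counts are not given without Ppara knockout 2. Man2a1, a Golgi mannosidase that trims N-glycans, had 4 among its 18 regions called in any of the 4 libraries, with a −log10 p of 11.9 to 30.4, and 1 more called only in Ppara knockout. Arid1b, a subunit of the BAF chromatin remodelling complex, and Gse1 had 4 of 18 each, and Nek6, a mitotic kinase, 4 of 8. In lists of equal length 1 of the 4 Nek6 regions kept the full separation. Man2a1, Arid1b and Gse1 each had 1 region there that only 1 of the 2 double knockout libraries called. With peaks covering 50% of the region, 2 of the 4 Nek6 and 1 of the 4 Gse1 regions kept the separation. In that setting 1 Man2a1 region was called in 1 double knockout library. Cpt1a had 3 of 6 and Slc25a33 3 of 10, and in lists of equal length only 1 double knockout library called 1 region of each. Cpt1a encodes the outer-membrane carnitine palmitoyltransferase, which acts just before CPT2 in the same shuttle.

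Genes of fatty acid oxidation and PPARα targets held more regions called only in double knockout than regions called only in Ppara knockout. Of the 50 PPARα target genes listed, 49 were among the RefSeq genes used. Near them, 10 of 107 regions (9.35%) were called only in double knockout and 1 (0.935%) only in Ppara knockout. The shares over all regions are 4.04% and 2.52%. Near genes of mitochondrial fatty acid oxidation and the carnitine shuttle the counts were 6 (10.2%) and 0 of 59. The lists overlap, and Cpt1a, Slc27a2 and Acadm are counted in both. Without Ppara knockout 2 the counts were 12 and 11 for the targets (11.7% and 10.7%), and 6 and 3 for oxidation (10.5% and 5.26%), against 7.02% and 9.97% of all regions. Without each of the other 3 libraries they were 15 to 19 against 1 to 6 and 8 to 9 against 0 to 4. Over all regions the shares then ranged from 9.41% to 15.4% and from 3.86% to 9.02%. Without double knockout 2, 17.6% of target and 14.3% of oxidation regions were called only in double knockout, against 15.4% of all. Only in Ppara knockout were 0.98% and 0%, against 3.86%. In equal-length lists the counts were 7 and 1 (6.93% and 0.990%), and 5 and 1 (8.62% and 1.72%). All regions there stood at 3.85% and 3.48%. In the Ppara-intact livers the same target genes had 15 regions, of 247, that both Cpt2 knockout and neither wild type library called, and 0 with the reverse pattern. That is 6.07% and 0%, against 3.83% and 0.542% of all regions called there. The oxidation genes had 4 of 111 (3.60%) and 0 there, so their share was not above that of all regions. Wild type 1 had the shortest of the intact lists, with 28733 peaks against 35908 to 39296.

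At Cpt1a the 3 regions lay outside and inside the gene. The first, 2.54 kb outside it (chr19:3319443-3319783), had peaks of 34.2 and 25.7 in double knockout. The second, inside the gene 2944 bp from the start (chr19:3326245-3326856), had peaks of 43.5 and 20.5. The third, deeper inside (chr19:3353687-3354076), had peaks of 13.7 and 15.2. A further region inside the gene (chr19:3333074-3333652) was called in all 4 libraries and stood at percentile 26.01 and 5.86 of the shared regions in Ppara knockout and 64.8 and 60.4 in double knockout. The first 3 were called only in double knockout by the rule that chose them, so they have no Ppara knockout value to compare. The rank difference of the shared region did not pass the test described below (limma, adjusted p = 0.347).

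Acadm, the medium-chain acyl-CoA dehydrogenase of β-oxidation, had the highest-ranked region of both lists. It lies inside the gene (chr3:153932427-153932838), with peaks of 25.7 and 60.8 in double knockout and a fold over background of 5.83 and 9.98. Neither wild type library and 1 Cpt2 knockout library called it. Cd36, a fatty acid transporter of the plasma membrane, had 2 regions, one 4.74 kb outside the gene with peaks of 48.1 and 19.4 and one inside it with 20.3 and 20.3. Acsl5, an acyl-CoA synthetase, had a region 1226 bp from its listed start with 34.8 and 19.9. Acot4, a peroxisomal thioesterase, had 23.3 and 17.9, and Creb3l3, a fasting transcription factor of the liver, 18.0 and 17.0. Slc27a2, a fatty acid transport protein, had 12.02 and 16.05, and Me1, the cytosolic malic enzyme, 11.6 and 10.8. The one target region called only in Ppara knockout lay 21.1 kb from Scd1, the stearoyl-CoA desaturase, with peaks of 22.2 and 15.8. None of the 35 regions near genes of ketone body synthesis was called only in one genotype. With only peaks of a −log10 q of 20 or more, 4 of 16 (25%) were called only in double knockout, against 6.78% of all regions. With all peaks but without Ppara knockout 2 the counts were 2 and 3 of 34 (5.88% and 8.82%), against 7.02% and 9.97% of all regions.

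**Figure D4:**
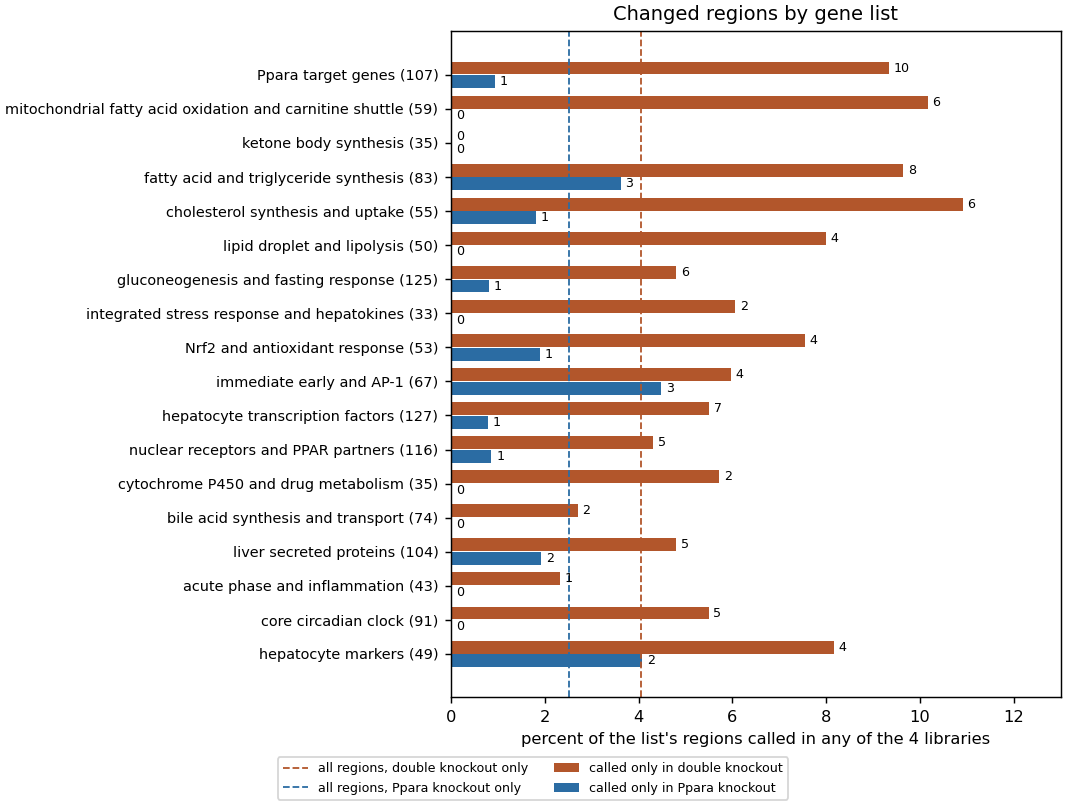
Percent of each gene list's regions that were called only in double knockout or only in Ppara knockout, with the number of regions at the end of each bar and the list's regions called in any of the 4 libraries in brackets. Dashed lines mark the shares over all regions, 4.04% and 2.52%; PPARα targets stand at 9.35% and 0.935%, and ketone body synthesis at 0 in both directions.

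Genes of lipid synthesis and storage also held more regions called only in double knockout than only in Ppara knockout, where all regions stand at 4.04% and 2.52%. Of 83 regions near genes of fatty acid and triglyceride synthesis, 8 (9.64%) were called only in double knockout and 3 (3.61%) only in Ppara knockout. The former included Gpam, the first acyltransferase of triglyceride synthesis, with peaks of 29.7 and 16.9, and Dgat2, the last one, with 21.3 and 14.5. Acacb, the acetyl-CoA carboxylase whose product inhibits CPT1, had 2 regions inside the gene, with 18.1 and 10.5 and with 14.0 and 12.2. Acly, Lpin1, Lpin2 and Me1 had 1 each. The latter lay at Acaca (15.1 and 12.2), Elovl5 (12.9 and 19.0) and Scd1. Near genes of cholesterol synthesis and uptake 6 of 55 (10.9%) were called only in double knockout, among them those at Insig2, Lss, Sqle and Insig1, and 1 only in Ppara knockout, at the start of Pmvk. INSIG1 and INSIG2 hold the SREBP activator in the endoplasmic reticulum, and LSS and SQLE are enzymes of sterol synthesis. Lipid droplet and lipolysis genes had 4 of 50 (8%) and 0, with Plin4 and Hilpda beside Cd36. Without Ppara knockout 2 the 3 lists stood at 13 and 11 (16.7% and 14.1%), 6 and 3 (11.3% and 5.66%), and 5 and 2 (10.2% and 4.08%), against 7.02% and 9.97% of all regions.

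Fasting and glucose genes had 6 (4.80%) and 1 (0.800%) of 125, where the shares over all regions are 4.04% and 2.52%. Igfbp1, a fasting-induced binding protein for insulin-like growth factors, had a region at its end (chr11:7201692-7201957) with peaks of 19.3 and 26.1 that no wild type and no Cpt2 knockout library called. Irs1, an insulin receptor substrate, had 2 regions, with 27.0 and 18.6 at the higher one. Foxo3 (21.9 and 20.6), Foxo1 (10.1 and 14.9) and Tat, the tyrosine aminotransferase (23.0 and 18.5), had 1 each. In the other direction a region inside Ppargc1a (chr5:51876914-51877260), the coactivator of oxidative and gluconeogenic genes, had peaks of 25.1 and 27.6 in Ppara knockout and none in double knockout. The Ppargc1a and Igfbp1 regions differed in opposite directions.

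Transcription factors of the hepatocyte had 7 (5.51%) and 1 (0.787%) of 127. The shares over all regions, 4.04% and 2.52%, apply to each list of this paragraph. The strongest region called only in double knockout lay 33.5 kb from Prox1, a homeodomain regulator of liver identity and metabolism, with peaks of 43.7 and 29.3. Cebpa, an activator of the mature liver programme, had 2 regions outside the gene, with 19.9 and 15.8 and with 22.6 and 10.4. Foxa2 and Rxra, the partner of PPARα, had 1 each, and Gata6 had 1 in each direction. This list turned without Ppara knockout 2, to 11 and 13 (9.24% and 10.9%), against 7.02% and 9.97% of all regions in that setting. Nuclear receptors and PPAR partners had 5 (4.31%) and 1 (0.862%) of 116, among them a region 3.47 kb from Pparg (22.1 and 16.4), the adipogenic relative of Ppara, and 1 at Ncoa2. The 1 on the other side was that of Ppargc1a. This list stood at 9 and 9 (8.33% each) without Ppara knockout 2. Circadian clock genes had 5 (5.49%) and 0 of 91, at Dbp, Bhlhe41 and, with the highest values, Rora (35.4 and 34.6), the activating receptor of the clock loop, Cry1 (34.9 and 22.8) and Per2 (24.0 and 24.4), both repressors of it. The clock list stood at 7 and 6 (8.05% and 6.90%) without Ppara knockout 2.

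In the remaining lists each count with no library left out is read against 4.04% and 2.52% of all regions. Antioxidant genes had 4 (7.55%) and 1 (1.89%) of 53, with Cat, the catalase (16.6 and 21.3), and Gstp1 (13.2 and 14.5) beside Nqo1 and Gstm3, and Gclc in the other direction (14.0 and 12.4). Immediate early genes had 4 (5.97%) and 3 (4.48%) of 67. Klf6 had a region 19.7 kb away with peaks of 22.4 and 41.2 that both Cpt2 knockout libraries and no wild type library called, and Ier3 had 2 regions outside it. Dusp1 had a region 829 bp from its start (11.6 and 12.5). Fosb (15.3 and 11.5), Myc (20.3 and 17.5) and Maf (11.6 and 13.2) were on the Ppara knockout side. The integrated stress response list had 2 (6.06%) and 0 of 33, at Creb3l3 and at Chac1 (13.3 and 14.7). Secreted liver proteins had 5 (4.81%) and 2 (1.92%) of 104, and the 6 hepatocyte markers 4 (8.16%) and 2 (4.08%) of 49. Both of these turned without Ppara knockout 2, to 6 and 9 (5.94% and 8.91%) and to 4 and 7 (8.89% and 15.6%). All regions turned there too, to 7.02% and 9.97%. In that setting bile acid genes stood at 2 and 6 (2.82% and 8.45%). Antioxidant genes stood at 6 and 5 (11.8% and 9.80%) and immediate early genes at 8 and 6 (12.5% and 9.38%). The integrated stress response list stood at 3 and 2 (9.09% and 6.06%) and P450 genes at 2 and 1 (5.71% and 2.86%). Acute phase genes stood at 2 and 2 (4.65% each), and endothelial markers at 2 and 2 (22.2% each). Apob, Fgb and Serpina1a had 1 region each on the double knockout side and Hpx 1 on the other. Besides its start, Alb had 1 region inside the gene on each side, at chr5:90467345-90467551 with 16.0 and 16.0 in double knockout and at chr5:90470236-90470535 with 14.0 and 21.0 in Ppara knockout. Cytochrome P450 genes had 2 and 0 of 35 (Por and Cyp3a11), bile acid genes 2 and 0 of 74 (Cyp7a1, the rate-limiting enzyme of bile acid synthesis, with 27.1 and 21.3, and Abcc3), and acute phase genes 1 and 0 of 43 (Crp). Among markers of other cell types, Stab2 (14.8 and 14.0) and Kdr (11.9 and 10.0), both endothelial, had a region on the double knockout side (2 of the list's 10) and Col1a1, a stellate cell marker, one on the Ppara knockout side (19.7 and 18.7, 1 of 2). The lymphocyte and cholangiocyte lists had none. The part of other cell types in the result was not tested.

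The calls of the Ppara-intact livers show where the changed regions stand in a liver with PPARα. Of the 1157 double knockout regions, 645 (55.7%) were called in all 4 intact libraries and 123 (10.6%) in none. Of the 721 Ppara knockout regions these were 487 (67.5%) and 32 (4.44%), and of all regions called in any Ppara-null library 72.2% and 9.41%. The highest-ranked of the 123 lay 130 kb from Pdgfra (31.3 and 33.4) and 424 bp from Ahcyl1 (28.9 and 35.7). Cpt2 loss on the intact background gave 1798 regions that both Cpt2 knockout and neither wild type library called (3.83% of the 46893 called there) and 254 of the reverse pattern (0.542%). Regions called only with Cpt2 loss on both backgrounds numbered 48, which is 4.15% of the 1157 and 2.67% of the 1798. Of all 28614 regions 465 (1.63%) had that pattern in the intact livers. This base includes the 11622 regions called in all 4 Ppara-null libraries, of which 38 (0.327%) had it. The 48 include those near Kank1 (36.6 and 36.4), Sec16a (33.2 and 33.8) and Klf6. Regions with the reverse pattern on both numbered 3, which is 0.416% of the 721 and 1.18% of the 254, where 66 of all 28614 (0.231%) had that pattern in the intact livers. The 2 comparisons share no library. The number in the deposited peak names was 6831 to 6834 in the Ppara-null libraries. In the intact ones it was 441 to 446, except for 4717 in Cpt2 knockout 2. A batch of that kind and Ppara status cannot be told apart, and this touches every comparison between backgrounds. Within the Ppara-null livers the number was 6834 and 6833 in Ppara knockout and 6832 and 6831 in double knockout. It runs in order of genotype there as well, and what it stands for is not given.

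Regions called in all 4 libraries were compared by rank, so that a difference in strength could be tested where presence did not differ. Each library's −log10 p values were ranked over the same 11622 regions, turned into normal scores and fitted with limma. By limma's Benjamini-Hochberg adjusted p, 0 of 11622 regions passed 0.05 (smallest adjusted p = 0.345). An unadjusted p under 0.05 was reached by 1381 regions (11.9%), 776 of them higher in double knockout and 605 lower. Without double knockout 1 this was 867 (407 higher and 460 lower), and without double knockout 2 it was 836 (410 and 426), so the direction turned. Limma with a trend in its prior variance called 32 (0.275%), 28 higher and 4 lower. In percentiles, the groups did not overlap and differed by 10 points or more at 2088 regions higher in double knockout (18%) and 2236 lower (19.2%). The rank of a region depends on those of all others, so these 2 numbers are not independent.

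The region with the smallest p lay at the start of Slc25a47, a mitochondrial carrier made almost only in liver (chr12:108850162-108850666). Its percentile was 22.5 and 11.3 in Ppara knockout and 95.4 and 93.9 in double knockout, and its −log10 p 19.9 and 14.4 against 99.4 and 72.1. The groups lay far apart, with a score difference of 2.59 (SE 0.39, limma adjusted p = 0.345), and limma with a trend called it (adjusted p = 0.00639). Inside Ncoa1, a steroid receptor coactivator, the percentiles were 4.21 and 9.93 against 89.7 and 78.7. Inside Entpd5, a nucleotidase of the endoplasmic reticulum, they were 10.7 and 7.36 against 91.2 and 78.5, and inside Grm7, a metabotropic glutamate receptor, 8.16 and 1.10 against 76.4 and 81.7. Limma with a trend called these 3 as well (adjusted p = 0.031, 0.0312 and 0.0328). A region 28.1 kb from Sox13 stood at 0.284 and 1.02 against 45.1 and 46.6. Of the lower regions, the percentile at the start of Tmem168 was 42.6 and 36.7 in Ppara knockout and 0.551 and 0.215 in double knockout. Near Map4 it was 66.7 and 80.0 against 2.84 and 10.4. Inside Mttp, the transfer protein that loads lipid onto very-low-density lipoproteins, it was 65.3 and 57.4 against 6.52 and 1.53. Inside Cdk6, a cell cycle kinase, it was 62.1 and 68.9 against 6.32 and 5.27, and at the start of Mrpl37, a mitochondrial ribosomal protein, 70.4 and 39.9 against 0.0602 and 2.21. None of the 5 lower regions was called by either form of limma.

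**Figure D5:**
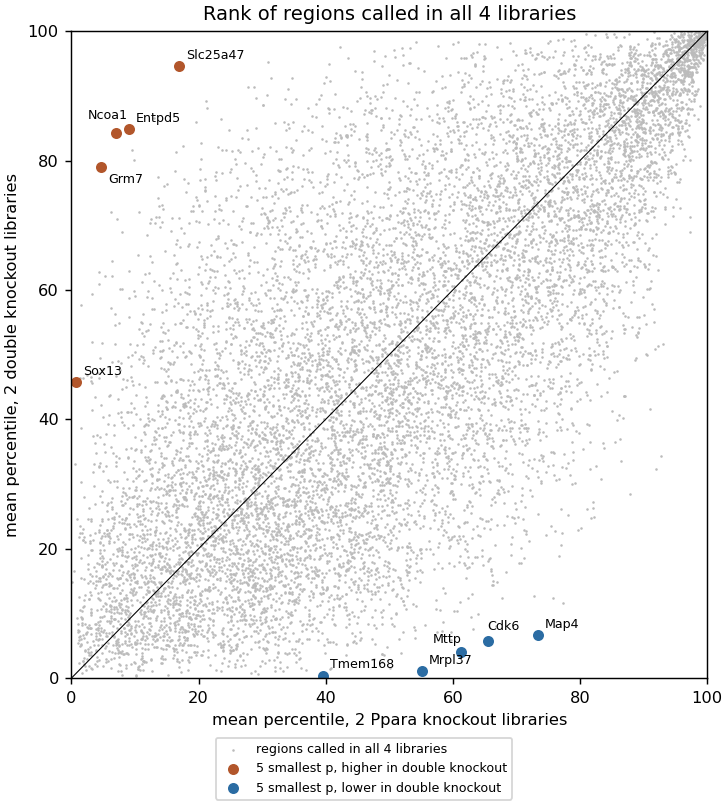
Mean percentile of each of the 11622 shared regions in Ppara knockout (horizontal axis) and double knockout (vertical axis), with the 5 regions of smallest p in each direction coloured. Slc25a47 lies at 94.6 against 16.9, while Tmem168 lies at 0.383 against 39.6, and the line marks equal rank.

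Por, the reductase that feeds electrons to microsomal cytochromes P450, stood at 91.1 and 70.7 in Ppara knockout and 99.4 and 99.8 in double knockout (limma with a trend, adjusted p = 0.00639). The start of Cyp2e1, a fasting-induced P450, stood at 53.5 and 27.7 against 94.1 and 95.6 (limma with a trend, adjusted p = 0.0312). The 4 lower calls included the starts of Fanca, Hltf and Asf1a and a region inside Camk2b. These 6 genes were picked from the 32 after their values were seen.

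By place, shared regions at gene starts ranked lower in double knockout and those inside genes higher. The median difference of percentiles, double knockout minus Ppara knockout, was -4.92 points over 5130 regions at starts, 6.70 over 2116 inside genes and 4.92 over 1759 outside. Without Ppara knockout 2 these medians were -3.33, 5.06 and 1.94. At starts 9.06% of regions stood apart higher and 25.8% lower, and inside genes 30.4% and 11.3%. No test was made of these medians, and regions share their libraries. Starts made up 55.3% of the shared regions with a place.

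The gene lists differed among themselves in these ranks. Near hepatocyte transcription factors the median difference over 51 shared regions was 11.6 points (5.36 without Ppara knockout 2), with 16 standing apart higher and 5 lower. Over the 18 shared regions near the 6 hepatocyte markers, Hnf4a among them, it was -7.85 points (-0.38 without Ppara knockout 2), with 6 higher and 3 lower. At Hnf4a, the master regulator of hepatocyte identity, 1 region inside the gene went from 1.08 and 11.5 to 65.8 and 48.6. Cytochrome P450 genes had 6 higher and 2 lower of 14, ketone body genes 5 and 0 of 13, and clock genes 13 and 3 of 43, where 18% of all shared regions stood apart higher and 19.2% lower. The median was 17.8 points for P450 genes and 2.26 for ketone body genes, and without Ppara knockout 2 these were 7.95 and -2.54. Ketone body genes, which had no changed call, included a region 34.9 kb from Bdh1, the hydroxybutyrate dehydrogenase, at 21.6 and 20.5 against 73.5 and 80.9. Gluconeogenesis genes had 14 and 7 of 48. Among them a region near G6pc, the glucose-6-phosphatase that releases glucose from the liver, went from 8.86 and 3.58 to 62.9 and 81.2 (limma adjusted p = 0.345). Fatty acid oxidation genes did not lean this way, with 5 higher and 8 lower of 31 and a median of -4.79 points, and among the lower was a region inside Slc27a2 (90.0 and 93.5 against 51.0 and 59.0). PPARα targets had 7 and 5 of 44. Without a trend limma called 0 regions of the gene lists, with a trend it called those at Por, Cyp2e1 and Ncoa1 named above, and the order of the lists was not tested.

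Whether the difference with Cpt2 loss depends on Ppara was tested as an interaction over the 11258 regions shared by all 8 libraries. Limma called 0 regions (smallest adjusted p = 0.479), and 909 (8.07%) had an unadjusted p under 0.05. Slc25a47 had an unadjusted interaction p of 0.000543 and Map4 of 0.000257. A missed threshold with 2 libraries a group does not show that the 2 differences are alike.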

How the data were processed

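ATAC-seq libraries of livers from 4 genotypes (2 libraries each) were available as 1 peak list per library and 1 table of consensus positions on mm10. The authors aligned with BWA and called peaks with MACS2 2.1.0 on mm10, per the submitters' processing notes. Duplicate handling, the Tn5 offset and filters are not given in the sources used here. In each deposited list the score is 10 times the −log10 p of the peak, rounded down. The deposited fold is the caller's ratio of signal to local background, and the deposited −log10 p and −log10 q belong to the same peak and library. These are the authors' values per peak and were used only to rank, describe or filter peaks within a list. No read count or depth is given, so the depth is unknown and peak number and rank were the only measures of it.

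Peaks were mapped to the consensus regions (overlap of 1 bp or more) and regions to the nearest of 21900 protein-coding genes of RefSeq on GRCm38.p6. The table gives no exons. A start site was listed for 17492 of the genes, and shares by place use regions whose nearest gene has one. Overlap of lists was measured with bedtools 2.31.1. Ranks were fitted with limma 3.58.1 in R 4.3.3 (normal scores, 2 groups of 2, Benjamini-Hochberg adjustment), after a test on simulated data. Other steps used Python 3.11.15, NumPy 2.4.6, pandas 2.3.3, SciPy 1.17.1 and matplotlib 3.10.9.

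Named were, per direction, the 10 changed regions of highest mean percentile and the 5 shared regions of smallest p, up to 3 changed regions per gene list within 100 kb, up to 6 genes with 3 or more changed regions, and Cpt2 and Ppara. Members of lists with lower ranks, the other regions of the Ppara-intact comparison and the regions of the lists among shared regions were named after their values were seen. Some regions counted in the gene lists are not reported here by gene. The rule, the gene lists and the comparisons were chosen with earlier results of these data known.

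Alternatives were lists of equal length (18132 peaks), a −log10 q of 20 or more, peaks covering 50% of a region, regions merged from the 4 lists, each library left out, ranks of the fold, ranks within whole lists, limma with a trend and the replicate number as a block.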

Additional observations from a re-analysis of the deposited data

Results flagged for a closer look

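At 11 regions the call pattern with Cpt2 loss was opposite on the 2 backgrounds: both libraries on one side and neither on the other without Ppara, and the reverse with Ppara intact. The difference was not tested at any of them. Their strength is given as the mean percentile in the 2 Ppara-null libraries that called them.

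Called only in double knockout and, with Ppara, only in wild type were 5 regions. They lay 280.024 kb from Rspo3, a Wnt signal enhancer (71.3), inside Man2a1 (58.7), inside 4931408C20Rik (54.0), at the start of Gm36722 (3.93) and inside Flrt2, an adhesion protein (2.49). Called only in Ppara knockout and, with Ppara, only in Cpt2 knockout were 6. They lay at the end of Lgi2 (49.7), near Pafah1b1 (46.5), inside Syne1, which links the nucleus to the cytoskeleton (43.0), inside Alb (36.04), near Tmprss2 (11.8) and inside Pfas, an enzyme of purine synthesis (9.67). Man2a1 and Alb also hold other changed regions. The 5 are 0.432% of the double knockout regions, where 0.231% of all regions called in the 4 Ppara-null libraries had the wild type pattern. The 6 are 0.832% of the Ppara knockout regions, below the 1.63% of all those regions with the Cpt2 knockout pattern.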

How the results depend on the processing

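Leaving out a library raised the number of changed regions by construction, since a single library then stands for its group. The total ranged from 4575 to 5481, against 1878, the double knockout regions from 1891 to 4206 and the Ppara knockout regions from 1057 to 2684. Without Ppara knockout 2 the direction turned (1891 against 2684, 4575 in all). The difference in peak number ranged from -1179.5 to 3403.5 and turned without double knockout 1. With a −log10 q of 20 or more there were 917 and 343 regions, of which 84 and 16 were among the 1157 and 721, and the share of Ppara knockout regions near a start was 65.02%. Equal-length lists gave 1005 and 910, sharing 853 and 562. A peak covering 50% of the region gave 1273 and 821, chosen after seeing the data because the planned overlap of 50% changes nothing: every peak lies inside its region. Merging the 4 lists gave 1195 and 766. Of the 95 changed regions named, 82 kept the full separation in equal-length lists, 80 with the stricter overlap and 25 at a −log10 q of 20. These settings only remove calls, so no named region could turn. The stricter overlap and this −log10 q limit for named regions were chosen after seeing the data. So were the counts of gene lists and the shares near starts without each library. Limma with a trend called 32 shared regions. The other fits, including ranks of the fold, whole-list ranks, equal-length lists and each library left out, called 0, as did every fit of the interaction. The numbers pair no samples that the labels say are related, and the deviations of same-numbered libraries correlated at -0.0188; with a replicate block limma called 0 shared regions and 0 interactions, so the block changed no call. The cause of these differences was not tested.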
